A study of Mus musculus with 24 samples.

Results

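The genes for Polycomb and trithorax proteins, which hold many developmental genes silent or active, were examined in hindlimb buds of mouse embryos that carry 1 functional copy of Nipbl. Of 39 listed genes, 38 were measured among 19937 genes on the arrays. They were chosen by name, from the complexes the proteins belong to, and each was read from its brightest probe set with a single gene symbol. Cbx6 was not analysed because its probe set carries several symbols. No gene of the 38 passed the test between genotypes, and for 36 of them the 95% limits of the mutant to wildtype ratio lay within 1.2-fold in either direction (94.7%, beside 93.3% of all genes).

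Polycomb proteins act in 2 main complexes. PRC2 places methyl groups on lysine 27 of histone H3, a mark of silent chromatin, and PRC1 attaches ubiquitin to histone H2A and compacts chromatin. Trithorax proteins of the Kmt2 family methylate lysine 4 of histone H3 at active promoters and enhancers, and the demethylases Kdm6a and Kdm6b remove the mark that PRC2 places. In the limb bud the opposed activities are best known for the Hox clusters, whose genes are switched on in order along the chromosome. The study asked how loss of Nipbl alters gene expression in developing limbs, and the regulators of these clusters were compared between its genotypes.

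At E10.5 (days of embryonic age) the left and right hindlimb buds of an embryo were pooled, and their RNA was measured on 1 Affymetrix Mouse Gene 1.0 ST array. There were 12 wildtype embryos and 12 embryos heterozygous for Nipbl (Nipbl+/-), which encodes a protein that loads cohesin onto chromosomes. The mutants were of the RRS strain and were stage-matched to the wildtype embryos, and the labels name no treatment of either group. The number of arrays limits the precision, and since a whole bud was measured, fewer cells of a type and less RNA per cell cannot be told apart. The log2 intensity of Nipbl ran from 10.32 to 10.72 in wildtype and from 9.54 to 9.97 in Nipbl+/- embryos, with no overlap (log2 difference -0.67, standard error 0.0492, adjusted p = 2.42e-09 by limma).

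Most promoters of the listed genes shared a sequence feature that the choice by name did not use. Of the 39 listed genes, 34 matched a RefSeq promoter of GRCm38.p6, Cbx6 among them and Pcgf1, Cbx2, Kdm6b, Kmt2b and Ash2l not, and the dinucleotide CG, which reads the same on both strands, was counted in the 250 bases before each start. The count ran from 5 to 48 with a median of 23, against a median of 6 over 27025 genes, taking the start with the most CG for each gene. At least 10 CG were found for 32 of the 34 genes (94.1%) and for 40.2% of all genes, while 92.1% of all promoters hold at least 1. The 200 bases before the start are printed for Kdm6a and Rbbp5, the members with the lowest mutant to wildtype ratios, with each CG in capitals. They lie at chrX:18162375-18162574 and chr1:132477167-132477366 on the plus strand. The genes as listed begin at chrX:18160862 and chr1:132477348, so the starts used here are not the outermost ones.
Kdm6a: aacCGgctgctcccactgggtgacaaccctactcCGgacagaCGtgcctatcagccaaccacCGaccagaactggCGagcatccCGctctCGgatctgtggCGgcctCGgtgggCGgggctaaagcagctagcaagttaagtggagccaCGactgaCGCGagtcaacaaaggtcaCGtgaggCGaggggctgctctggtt
Rbbp5: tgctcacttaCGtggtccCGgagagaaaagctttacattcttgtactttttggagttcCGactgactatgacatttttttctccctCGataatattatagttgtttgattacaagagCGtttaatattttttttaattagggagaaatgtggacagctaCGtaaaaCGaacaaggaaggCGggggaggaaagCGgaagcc
The Kdm6a stretch holds 15 CG and the Rbbp5 stretch 9, so both are richer in CG than the median promoter.

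The 38 genes as a set lay close to the wildtype level. By limma, with Benjamini-Hochberg adjustment over all genes, 0 of 38 were higher and 0 were lower in Nipbl+/- buds at an adjusted p under 0.05, where 0.286% of all genes were called higher and 0.527% lower. A t-test on linear intensities also called 0 of 38, and 169 of 19937 genes. At an unadjusted p under 0.05, 3 members were higher (7.89%) and 3 were lower (7.89%), beside 4.13% and 5.14% of all genes. The 3 higher ones were Eed, Rbbp7 and Aebp2, all of PRC2, and the 3 lower ones were Kdm6a, Rbbp5 and Men1. With the wider limit of an adjusted p under 0.25, which 1.21% of all genes passed as higher and 1.91% as lower, 1 member was called, Rbbp5, as lower.

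The log2 differences of the members, Nipbl+/- minus wildtype, ran from -0.25 to 0.13 with a median of 0.013, and the median over all genes was -0.0049. There were 23 genes with a ratio above 1 and 15 with a ratio below 1, beside 9269 and 10668 of all genes. Whether these splits differ was not tested. The standard errors of the members ran from 0.0266 to 0.12 with a median of 0.0408, smaller than the median of 0.0535 over all genes. The 95% limits lay within 1.1-fold for 26 members (68.4%) and for 35.8% of all genes, and within 1.2-fold for 36 members (94.7%) and for 93.3% of all genes. Pcgf1 and Kdm6a were the members with wider limits, and within 1.5-fold lay all 38 and 99.7% of all genes.

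**Figure D1:**
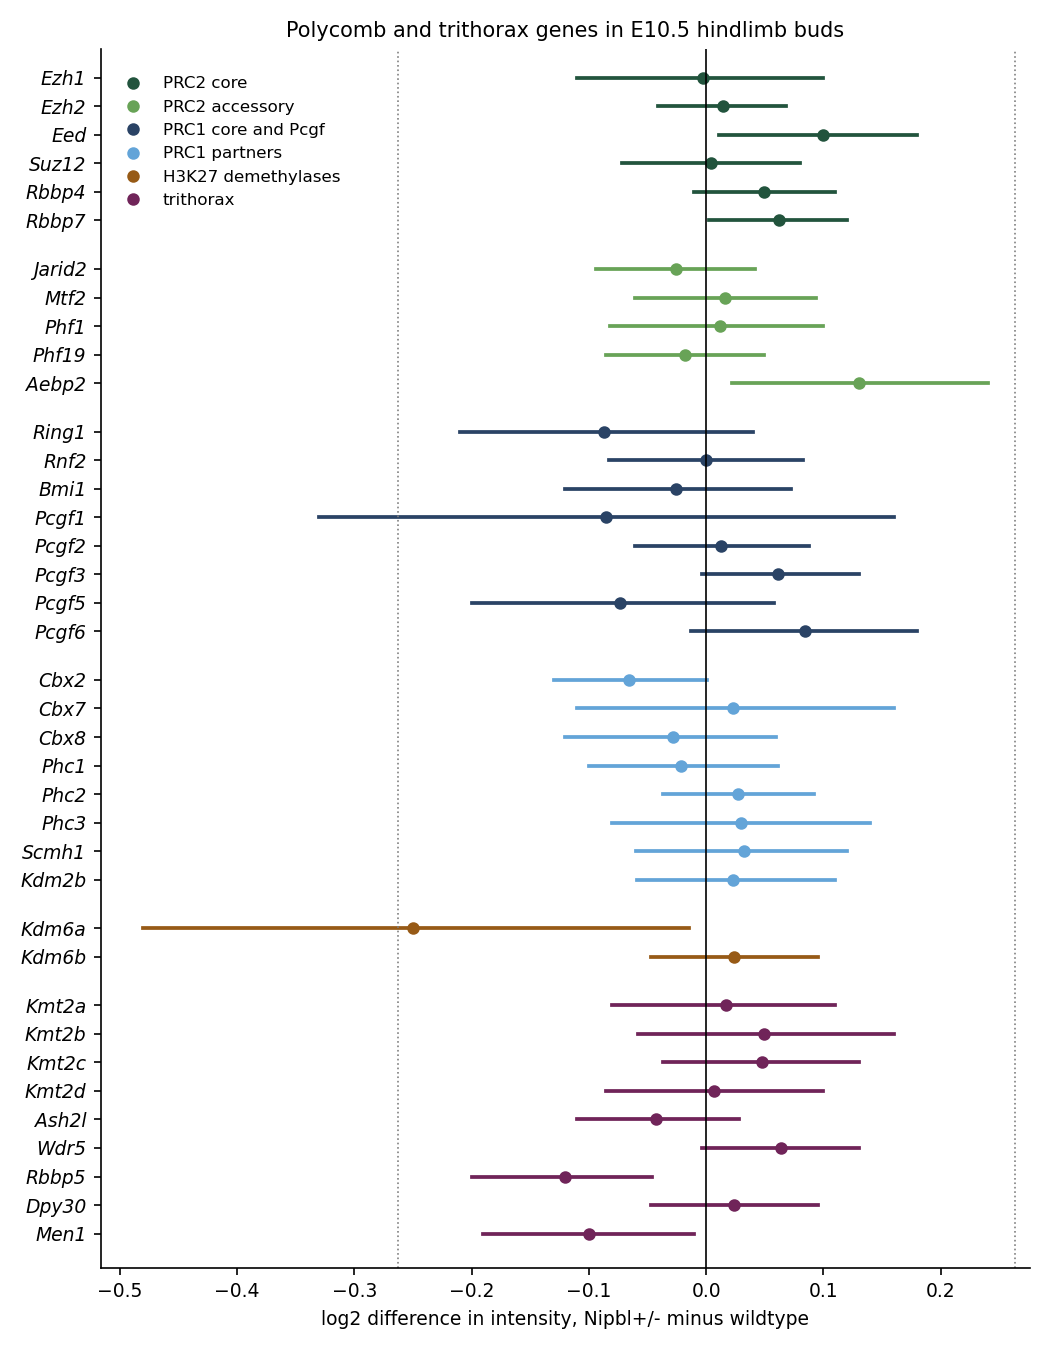
Log2 difference in intensity, Nipbl+/- minus wildtype, for the 38 measured Polycomb and trithorax genes, grouped by complex. Points are differences of the means of 12 and 12 embryos, bars their 95% limits by limma, and dotted lines mark a ratio of 1.2 in either direction; most bars cross 0, and those of Kdm6a and Pcgf1 reach furthest.

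PRC2 was represented by 11 genes, with a median log2 difference of 0.014. Of these, 8 had a ratio above 1 and 3 a ratio below 1, beside 9269 and 10668 of all genes. An embryo's deviation was taken as the median, over the 11 genes, of its deviations from each gene's wildtype mean. It ran from -0.082 to 0.051 in wildtype, with a median of 0.0087. In Nipbl+/- embryos it ran from -0.039 to 0.088, with a median of 0.034. The ranges of the 2 genotypes overlapped over most of their length.

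Ezh2, the catalytic subunit of PRC2 in dividing cells, had the smallest standard error of the 38 genes, 0.0266. Its log2 intensity was 12.40 at the lowest, 12.49 at the median and 12.58 at the highest in wildtype, and 12.45, 12.50 and 12.58 in Nipbl+/- embryos. The groups overlapped almost completely, and the ratio was 1.01 with 95% limits of 0.972 and 1.05 (adjusted p = 0.963 by limma). Ezh1, the alternative catalytic subunit, had a ratio of 0.998 (limits 0.929 and 1.07), and Suz12, the scaffold on which the core assembles, a ratio of 1.0 (limits 0.951 and 1.06).

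Eed, the subunit that binds trimethylated lysine 27 and stimulates the enzyme, was 9.48, 9.62 and 9.74 at the lowest, median and highest wildtype embryo. In Nipbl+/- embryos it was 9.51, 9.71 and 9.96. The groups overlapped, although 11 of 12 mutants lay above the wildtype mean, and the log2 difference of 0.10 (standard error 0.0411) did not pass the adjustment (p = 0.0285, adjusted p = 0.439 by limma). A second, much dimmer probe set for Eed had a log2 difference of -0.058, of the other sign, and the adjusted p of the mean of both was 0.972.

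Rbbp7, a histone-binding subunit that PRC2 shares with other chromatin complexes, was 11.78, 11.92 and 11.98 in wildtype and 11.87, 11.98 and 12.04 in Nipbl+/- embryos. It lay above the wildtype mean in 11 of 12 mutants, with a log2 difference of 0.062 (standard error 0.0288, p = 0.0408, adjusted p = 0.501 by limma). Its second probe set had a difference of 0.032, of the same sign. Its paralogue Rbbp4 had a difference of 0.049 (standard error 0.0287, adjusted p = 0.666 by limma).

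Among the accessory subunits, Aebp2, a zinc finger protein that helps PRC2 engage nucleosomes, had the largest positive difference of all 38 genes. Its log2 intensity was 8.94, 9.21 and 9.45 at the lowest, median and highest wildtype embryo and 9.11, 9.35 and 9.49 in Nipbl+/- embryos. The groups overlapped, 10 of 12 mutants lay above the wildtype mean, and the log2 difference was 0.13 (standard error 0.052, p = 0.0195, adjusted p = 0.369 by limma, with a range of 0.172 to 0.562 over the settings tried). The 2 lowest wildtype values were at 8.94 and 8.95, and the next lowest was at 9.12. Jarid2, which helps bring PRC2 to its targets, had a ratio of 0.982 (limits 0.937 and 1.03). The Polycomb-like proteins Mtf2, Phf1 and Phf19, which bind CG-rich DNA or methylated histone, had ratios of 1.01, 1.01 and 0.988.

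PRC1 was represented by 16 genes, with a median log2 difference of 0.0067. Of these, 8 had a ratio above 1 and 8 a ratio below 1, beside 9269 and 10668 of all genes. At an unadjusted p under 0.05, 0 of the 16 were higher and 0 were lower by limma, beside 4.13% and 5.14% of all genes. With 16 genes, a count of 0 is near these shares. The embryos' deviations, as medians over these genes, ran from -0.12 to 0.068 in wildtype, with a median of 0.013. In Nipbl+/- embryos they ran from -0.088 to 0.061, with a median of 0.019.

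The enzymes of PRC1 are Rnf2, which carries most of the ubiquitin ligase activity, and Ring1. Rnf2 ran from 11.12 to 11.44 in wildtype and from 11.01 to 11.40 in Nipbl+/- embryos, with a ratio of 1.0 (limits 0.944 and 1.06). Ring1 ran from 8.21 to 8.64 and from 8.04 to 8.62, with a ratio of 0.942 (limits 0.863 and 1.03, adjusted p = 0.754 by limma). For neither gene did the genotypes separate.

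Each PRC1 holds 1 of the Pcgf proteins, which decide the variant of the complex. Bmi1 and Pcgf2, found in the canonical forms, had ratios of 0.982 and 1.01. Pcgf3, Pcgf5 and Pcgf6, found in variant forms, had ratios of 1.04 (limits 0.998 and 1.09), 0.951 (limits 0.869 and 1.04) and 1.06 (limits 0.991 and 1.13). Pcgf3 and Pcgf6 each lay above the wildtype mean in 11 of 12 mutants, with adjusted p of 0.585 and 0.645 by limma.

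Pcgf1, found in the variant PRC1 with Kdm2b, had the largest standard error of the 38 genes, and 1 array set it. Its log2 intensity was 8.14, 8.44 and 8.64 at the lowest, median and highest wildtype embryo and 6.96, 8.43 and 8.55 in Nipbl+/- embryos. The lowest of these was mutant 2, which had a log2 deviation of -1.45 from the wildtype mean, and the next lowest mutant was at 8.36. The log2 difference was -0.085 (standard error 0.12, adjusted p = 0.934 by limma) with all arrays. Without mutant 2 it was 0.039 (standard error 0.0468, 95% limits -0.057 and 0.14, adjusted p = 0.803 by limma), so its sign turned and its limits lay within 1.2-fold.

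Of the PRC1 partners, Cbx2, a chromodomain protein that binds trimethylated lysine 27 and compacts chromatin, came nearest to the unadjusted threshold. It was 11.36, 11.46 and 11.63 at the lowest, median and highest wildtype embryo and 11.35, 11.41 and 11.48 in Nipbl+/- embryos. The 3 highest values, at 11.55, 11.61 and 11.63, were all wildtype, and 11 of 12 mutants lay below the wildtype mean. The log2 difference was -0.066 (standard error 0.0326, p = 0.0526, adjusted p = 0.551 by limma). The standard deviation was 0.0849 in wildtype and 0.0379 in Nipbl+/- embryos, a difference in spread that was not tested. The other chromodomain subunits Cbx7 and Cbx8 had ratios of 1.02 (limits 0.925 and 1.12) and 0.981 (limits 0.923 and 1.04).

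The polyhomeotic proteins Phc1, Phc2 and Phc3, which polymerise and cluster PRC1, had ratios of 0.986, 1.02 and 1.02. A second probe set of Phc3 differed by 0.23 on the log2 scale where the brighter one differed by 0.03, with a wildtype standard deviation of 0.359 against 0.0996. Scmh1, a partner with a related polymerising domain, had a ratio of 1.02 (limits 0.959 and 1.09). Kdm2b, which brings a variant PRC1 to unmethylated CG-rich DNA, had a ratio of 1.02 (limits 0.960 and 1.08).

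**Figure D2:**
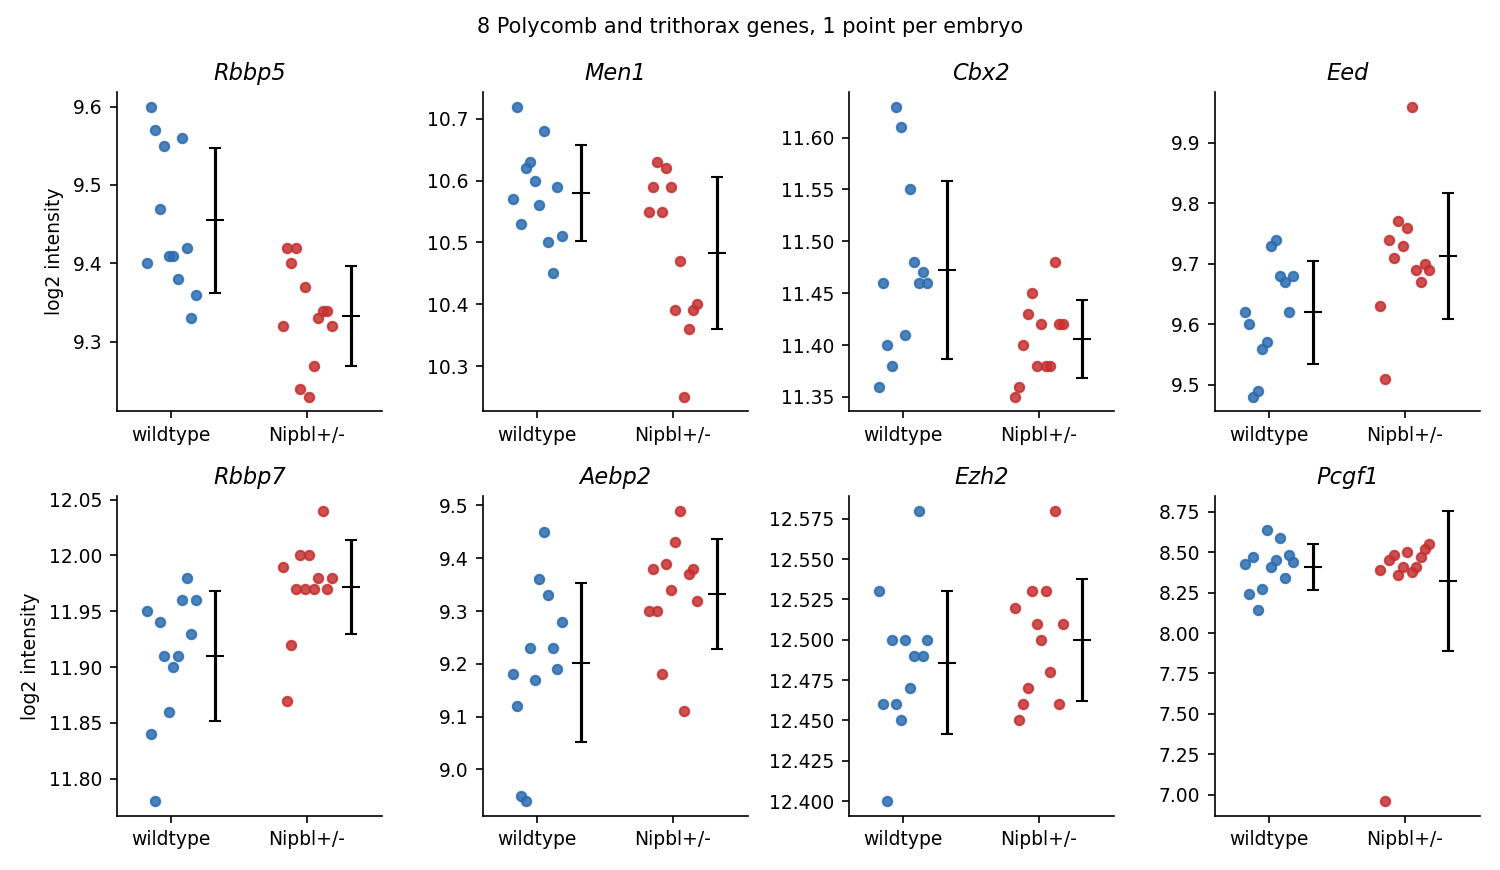
Log2 intensity of 8 Polycomb and trithorax genes in 12 wildtype (blue) and 12 Nipbl+/- (red) embryos, 1 point per embryo, with the mean and standard deviation as a black bar; each panel has its own vertical axis, which does not start at 0. Rbbp5 lies below the wildtype mean in 12 of 12 mutants, Men1 falls into higher and lower mutants, and 1 mutant sets the spread of Pcgf1.

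Of the 2 demethylases of lysine 27, Kdm6a, an X-linked gene, had the largest difference of all 38 genes. Its log2 intensity was 9.87, 10.54 and 10.72 at the lowest, median and highest wildtype embryo and 9.55, 10.08 and 10.74 in Nipbl+/- embryos. The groups overlapped over the whole wildtype range, and the log2 difference was -0.25 (standard error 0.113, p = 0.0378, adjusted p = 0.489 by limma). Kdm6b, an autosomal gene, was 10.31, 10.39 and 10.43 in wildtype and 10.20, 10.43 and 10.53 in Nipbl+/- embryos, with a ratio of 1.02 (limits 0.968 and 1.07).

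Kdm6a is known to escape X inactivation, so that females express it from both X chromosomes, and Xist is the RNA made by the inactive X. On these arrays the embryos fell into 2 sets by Xist, and Kdm6a differed between the sets. In the 11 embryos with high Xist (log2 intensity 11.85 to 12.36, 8 wildtype and 3 Nipbl+/-), Kdm6a ran from 10.42 to 10.74. In the 13 embryos with low Xist (4.91 to 7.71, 4 wildtype and 9 Nipbl+/-), it ran from 9.55 to 10.18, below every embryo of the first set. The mean log2 difference between the sets was 0.57. Within the high set the genotypes differed by 0.00082 (standard error 0.0879) and within the low set by -0.019 (standard error 0.101). With embryo sex as a covariate, the log2 difference was -0.011 (95% limits -0.15 and 0.13, adjusted p = 0.995 by limma), against -0.25 without it.

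Related genes moved with Xist in the same embryos. Kdm5c, an X-linked demethylase of lysine 4 that also escapes inactivation, was 0.36 higher in the high Xist set on the log2 scale. Uty, the Y-linked counterpart of Kdm6a, was lower in that set by a log2 difference of -4.62, from 3.91 to 4.52 against 8.25 to 9.15. Rbbp7 is X-linked too, but its mean differed by -0.012 between the sets, and the genotypes differed by 0.059 within the high set and 0.076 within the low set. Wildtype 3 held an intermediate level of Xist, 7.71, together with Uty in the range of the low set.

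**Figure D3:**
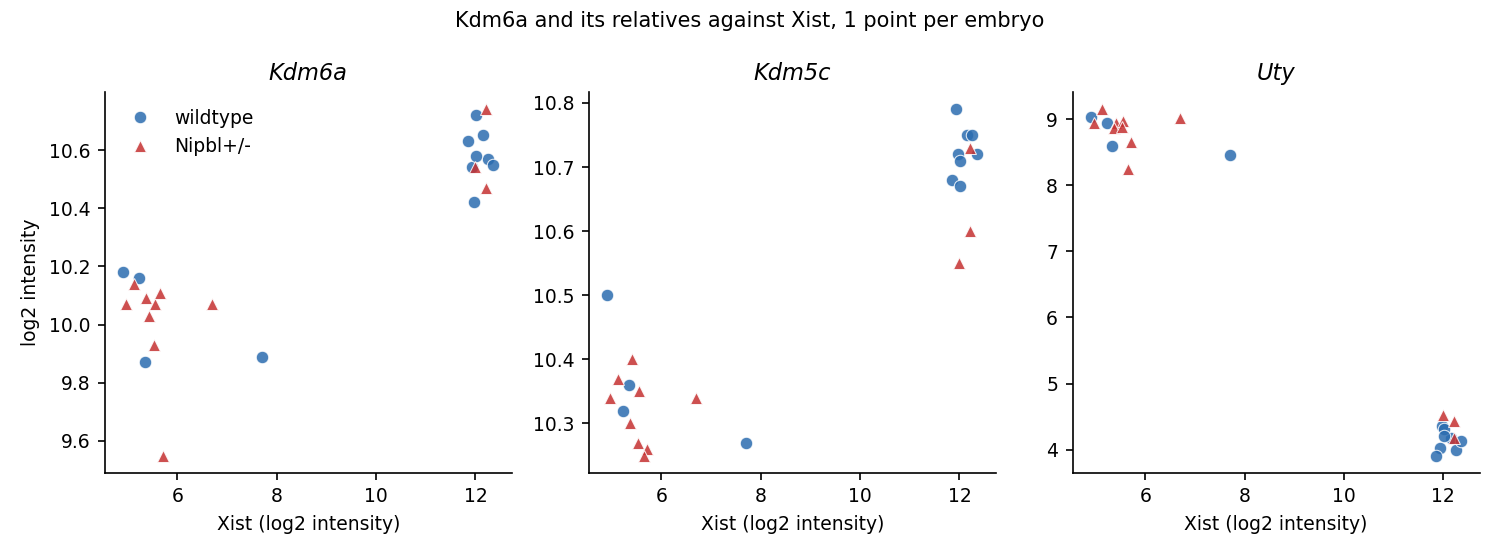
Log2 intensity of Kdm6a, Kdm5c and Uty (vertical axes, each panel with its own scale) against log2 intensity of Xist (horizontal axes) in 12 wildtype (circles) and 12 Nipbl+/- (triangles) embryos. All 11 embryos with Xist at 11.85 or more have Kdm6a at 10.42 or more, all 13 others have it at 10.18 or less, and both genotypes occur in each set.

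Of the 9 trithorax genes, 6 had a ratio above 1 and 3 a ratio below 1, beside 9269 and 10668 of all genes. Their median log2 difference was 0.017. The 4 methyltransferases stayed near the wildtype level. Kmt2a and Kmt2b, which act at promoters of Hox and other developmental genes, had ratios of 1.01 (limits 0.946 and 1.08) and 1.03 (limits 0.961 and 1.11). Kmt2c and Kmt2d, which act mainly at enhancers, had ratios of 1.03 (limits 0.975 and 1.1) and 1.0 (limits 0.943 and 1.07). The second probe set of Kmt2d gave a difference of 0.0014, close to the 0.0067 of the brighter one.

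The methyltransferases share a core of Wdr5, Rbbp5, Ash2l and Dpy30, and the ratios of these subunits lay on both sides of 1. Rbbp5, the subunit that contacts the catalytic domain together with Ash2l, had the smallest p of the 38 genes. Its log2 intensity was 9.33, 9.42 and 9.60 at the lowest, median and highest wildtype embryo and 9.23, 9.34 and 9.42 in Nipbl+/- embryos. The groups overlapped between 9.33 and 9.42, and 12 of 12 mutants lay below the wildtype mean. The log2 difference was -0.12, a ratio of 0.920 (limits 0.873 and 0.969, p = 0.00258, adjusted p = 0.147 by limma, with a range of 0.0531 to 0.241 over the settings tried). Within the high Xist set the difference was -0.13 (standard error 0.0381) and within the low set -0.15 (standard error 0.049).

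Wdr5, which docks the core to the enzyme, had a ratio of 1.05 (limits 0.998 and 1.1), and 10 of 12 mutants lay above the wildtype mean. Ash2l had a ratio of 0.971 (limits 0.924 and 1.02), and Dpy30, which binds Ash2l, a ratio of 1.02 (limits 0.968 and 1.07). The adjusted p of these 3 were 0.582, 0.801 and 0.938 by limma.

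Men1 encodes menin, which links Kmt2a and Kmt2b to chromatin. Its log2 intensity was 10.45, 10.58 and 10.72 at the lowest, median and highest wildtype embryo and 10.25, 10.51 and 10.63 in Nipbl+/- embryos. The log2 difference was -0.10 (standard error 0.0432, p = 0.0304, adjusted p = 0.449 by limma). The 6 mutants numbered 1 to 6 were at 10.55 to 10.63, inside the wildtype range, and the 6 numbered 7 to 12 were at 10.25 to 10.47, of which 5 were below the lowest wildtype embryo. Wildtype embryos 1 to 6 ran from 10.53 to 10.72 and 7 to 12 from 10.45 to 10.68. The genotypes differed by -0.23 (standard error 0.0707) within the high Xist set, whose mutants are numbers 8, 9 and 12, and by -0.024 (standard error 0.0508) within the low set.

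Some arrays stood apart in many members at once. The interquartile range over all genes was 3.21 in wildtype 3, 3.27 in mutant 2 and 3.31 in mutant 9, and from 3.40 to 3.76 on the other arrays. Wildtype 3 was the lowest of its group for 11 of the 38 members and the highest for 1. Mutant 2 was the lowest for 13 and the highest for 6, and mutant 9 the lowest for 12 and the highest for 1. The share of all genes with their lowest value in these arrays was not counted. Taken as the median over all members, the deviation from the wildtype mean was lowest in wildtype 3 (-0.094) among wildtype. Among Nipbl+/- embryos it was lowest in mutant 9 (-0.075). Leaving out these 3 arrays, 0 of 38 members passed the test by limma, where 222 of 19937 genes did. The log2 differences were then -0.12 for Rbbp5, -0.27 for Kdm6a, -0.09 for Men1 and 0.12 for Aebp2. With the interquartile range as a covariate, 0 of 38 members passed by limma, where 487 of 19937 genes did. The smallest adjusted p of a member was 0.0531, for Rbbp5.

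Arrays numbered 1 to 6 and 7 to 12 also differed, and the sources used here do not say what the numbers stand for. The interquartile range was 3.21 to 3.56 in wildtype 1 to 6 and 3.57 to 3.69 in wildtype 7 to 12, and 3.27 to 3.76 and 3.31 to 3.67 in the mutants with these numbers. The mutants of the 2 number ranges did not overlap for 2 of the 38 members, Men1 and Scmh1. The wildtype embryos of the 2 ranges overlapped for all 38. The share of all genes without overlap was not counted, so neither count can be read as particular to the members. Mutants 7 to 12 were lower than mutants 1 to 6 on average, by a log2 difference of -0.25 for Ring1, -0.22 for Ezh1 and -0.21 for Kmt2b. Wildtype 7 to 12 were higher than wildtype 1 to 6 by 0.13 for Eed and 0.21 for Aebp2.

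The genotype differences of several members had other values in each range of numbers. All mutants numbered 1 to 6 were of the low Xist set. Both Xist sets occurred among wildtype 1 to 6 and among arrays 7 to 12 of each genotype. Within arrays 1 to 6, genotype and embryo sex thus cannot be fully told apart. Between 6 and 6 embryos, Ezh1 differed by 0.12 (standard error 0.0584) in arrays 1 to 6 and by -0.13 (standard error 0.0576) in arrays 7 to 12. Scmh1 differed by 0.15 (standard error 0.0636) and -0.091 (standard error 0.0438), Aebp2 by 0.21 (standard error 0.0618) and 0.044 (standard error 0.0636), and Men1 by -0.025 (standard error 0.0445) and -0.17 (standard error 0.0496). Rbbp5 had a log2 difference below 0 in both, -0.14 (standard error 0.0534) and -0.10 (standard error 0.0461). By limma within arrays 1 to 6, 0 members passed an adjusted p under 0.05, where 0.115% of all genes did, and 10 had an unadjusted p under 0.05, where 21.7% of all genes did. Within arrays 7 to 12, 0 members passed, where 2.51% of all genes did, and 6 had an unadjusted p under 0.05, where 24.7% of all genes did. With the number range as a covariate 0 members passed by limma, and whether a genotype difference differed between the ranges was not tested.

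**Figure D4:**
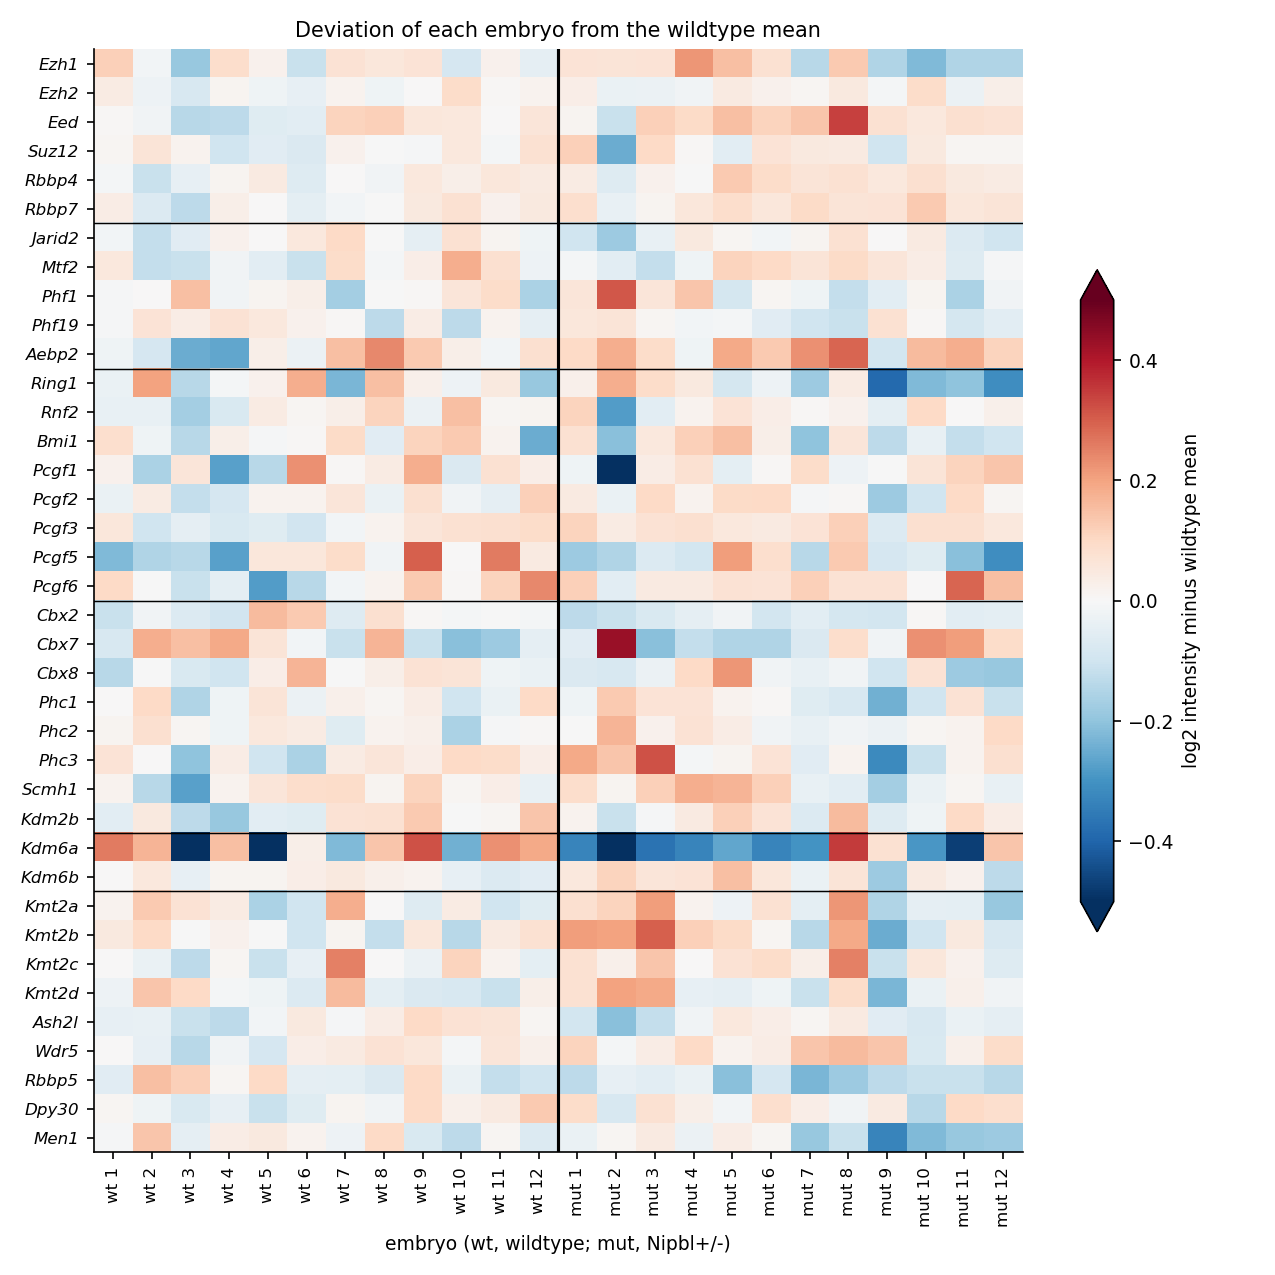
Log2 deviation of each embryo (columns, wildtype left and Nipbl+/- right of the thick line) from the wildtype mean, for the 38 genes (rows, by complex); red is above and blue below, and colours saturate at 0.5. Kdm6a varies widely from embryo to embryo in both genotypes, Rbbp5 is blue in all 12 mutants, and mutants 2 and 9 are among the lowest for many genes.

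The spread between embryos was small for most members. The standard deviation had a median of 0.0849 in wildtype and 0.102 in Nipbl+/- embryos, against 0.127 and 0.134 over all genes. In wildtype it ran from 0.0413 for Kdm6b to 0.296 for Kdm6a, and in Nipbl+/- embryos from 0.0379 for Cbx2 to 0.434 for Pcgf1. By mean intensity the members lay between percentile 30.9 of all genes (Pcgf5) and percentile 99.1 (Rbbp4). They were not matched to other genes by intensity, so smaller spreads, standard errors and limits cannot be read as particular to them.

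Paralogues that can replace each other were compared within each array, as the difference in log2 intensity between 2 genes, in 8 pairs. By a two-sided permutation test with adjustment over the 8, no pair changed its balance between genotypes at an adjusted p under 0.05, and the smallest unadjusted p was 0.0595. This was Kdm6a minus Kdm6b, which differed by -0.27 (standard error 0.136, 95% limits -0.55 and 0.011, adjusted p = 0.476 by permutation). With embryo sex as a covariate it differed by -0.009 (adjusted p = 0.907 by permutation).

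The other pairs had narrower limits. Ezh2 minus Ezh1 differed by 0.016 (limits -0.091 and 0.12), and Rbbp4 minus Rbbp7 by -0.013 (limits -0.044 and 0.018). Rnf2 minus Ring1 differed by 0.086 (limits -0.078 and 0.25), Bmi1 minus Pcgf2 by -0.04 (limits -0.14 and 0.065) and Cbx2 minus Cbx7 by -0.089 (limits -0.24 and 0.063). Kmt2a minus Kmt2b differed by -0.031 (limits -0.12 and 0.059) and Kmt2c minus Kmt2d by 0.042 (limits -0.053 and 0.14). The adjusted p of these 7 ran from 0.539 to 0.752 by permutation.

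Among 49 other genes of the pathway, 1 was called higher and 0 lower by limma, where 0.286% and 0.527% of all genes were. At an unadjusted p under 0.05 there were 4 higher (8.16%) and 2 lower (4.08%), beside 4.13% and 5.14% of all genes. The called gene was Csnk2a1, a catalytic subunit of casein kinase 2, which joins some variant forms of PRC1 and has many other substrates. It ran from 11.92 to 12.06 in wildtype and from 12.03 to 12.20 in Nipbl+/- embryos, so that the groups overlapped only between 12.03 and 12.06. Its ratio was 1.09 (limits 1.04 and 1.13, adjusted p = 0.0326 by limma), and the call was lost with the mean of its probe sets (adjusted p = 0.273), with embryo sex as a covariate (0.0523) and with replicate number as a block (0.0736). With embryo sex its log2 difference was 0.13 (standard error 0.0319), close to the 0.12 of the fit without it. The other catalytic subunit, Csnk2a2, had a ratio of 1.05 (adjusted p = 0.439 by limma).

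The lower values among these genes did not pass the adjustment. Kdm5c ran from 10.27 to 10.79 in wildtype and from 10.25 to 10.73 in Nipbl+/- embryos, with a ratio of 0.866 (adjusted p = 0.191 by limma). With embryo sex as a covariate its adjusted p was 0.687, and its log2 difference -0.069 in place of -0.21. Pagr1a, a subunit of the Kmt2c and Kmt2d complexes, ran from 10.65 to 11.35 in wildtype and from 9.30 to 10.88 in Nipbl+/- embryos, with a ratio of 0.755 (adjusted p = 0.315 by limma). Its partner Paxip1 had a ratio of 1.04 (adjusted p = 0.528 by limma).

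The Hox genes are the best-known targets of both groups of proteins. Of 37 measured Hox genes, 0 were higher and 2 were lower by limma, where 0.286% and 0.527% of all genes were. At an unadjusted p under 0.05, 1 was higher (2.7%) and 6 were lower (16.2%), beside 4.13% and 5.14% of all genes. The called genes were Hoxd13 and Hoxd12, at the end of the HoxD cluster that is active in the distal limb. Hoxd13 ran from 9.53 to 10.45 in wildtype and from 8.95 to 9.67 in Nipbl+/- embryos, with a ratio of 0.653 (adjusted p = 0.00163 by limma). Hoxd12 ran from 8.91 to 9.85 and from 8.55 to 9.30, with a ratio of 0.744 (adjusted p = 0.0362 by limma), and its adjusted p was 0.0629 without the 3 arrays of low interquartile range. The ratios of the Hox genes spanned 0.653 to 1.1, and those of the 38 members 0.843 to 1.09, or 0.92 to 1.09 without Kdm6a. The median standard error was 0.059 for the Hox genes and 0.0408 for the members, and the spans were not compared by a test.

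Known Polycomb targets that regulate other lineages did not pass the test, and whether PRC2 occupies them in these buds was not measured. Of 21 such genes, among them regulators of neural, endodermal and cardiac fate, 0 were higher and 0 were lower by limma. Of all genes, 0.286% and 0.527% were. Before adjustment (p under 0.05), 0 were higher and 1 was lower (4.76%), beside 4.13% and 5.14% of all genes. Their ratios ran from 0.903 to 1.05. By mean intensity they lay between percentile 16.3 of all genes (Otx2 and Eomes) and percentile 73.6 (Gata6). For the dim ones a decrease could hardly be seen. The lower one was Sox17, a regulator of endoderm and endothelium, with a ratio of 0.913 (adjusted p = 0.445 by limma).

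Ezh2 and Eed are known to rise in dividing cells, so genes of the cell cycle were read beside them. Of 14, 1 was higher and 0 were lower by limma, where 0.286% and 0.527% of all genes were. Before adjustment (p under 0.05), 2 were higher (14.3%) and 1 was lower (7.14%), beside 4.13% and 5.14% of all genes. Pcna, the sliding clamp of DNA replication, had a ratio of 1.21 (limits 1.14 and 1.29, adjusted p = 0.000772 by limma) and was higher than the wildtype mean in 12 of 12 mutants. These values come from the brighter of its 2 probe sets, and the other was not compared on its own. Mcm6 and Mcm3, subunits of the replicative helicase, had ratios of 1.08 and 0.922 (adjusted p = 0.217 and 0.404 by limma).

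The makeup of the buds was read from marker lists. Of all genes, 0.286% were called higher and 0.527% lower, and 4.13% and 5.14% at an unadjusted p under 0.05. Tbx4 and Pitx1, which define the hindlimb, ran from 11.54 to 11.85 and from 11.30 to 11.71 over all embryos. Of 7 limb mesenchyme markers, with ratios from 0.949 to 1.11, 1 was higher, Lhx9 (adjusted p = 0.00698 by limma). Of 5 nerve and Schwann markers, with ratios from 1.01 to 1.19, 1 was higher, Erbb3 (adjusted p = 0.0499 by limma). All 7 macrophage markers had a ratio below 1, from 0.866 to 0.997, and 0 passed the test by limma, with 2 lower at an unadjusted p under 0.05. Of the ectoderm, endothelial, erythroid and muscle precursor lists, 0 of 26 genes passed by limma, with 2 higher and 1 lower before adjustment (p under 0.05) and ratios from 0.875 to 1.11. The part of these differences in the values of the Polycomb and trithorax genes was not tested.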

How the data were processed

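RNA from the hindlimb buds of 24 embryos was measured on 24 arrays. Array files were converted by the authors in GenePattern (Expression File Creator). RMA is named in the submitters' processing notes, and its version is not given in the sources used. The deposited values are thus log2 intensities after background correction, normalization between arrays and summary per probe set, so that a shift shared by most genes would not be seen. Array medians ran from 7.24 to 7.39, and 0 arrays were identical to another. The columns of the value table were matched to samples by their accessions.

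Of 28159 probe sets, 21640 had 1 gene symbol in the platform's annotation, 1321 had several and 5198 had none listed; of those with 1 symbol, 21553 matched a RefSeq gene by Entrez ID. The brightest probe set was kept for 954 genes with more than 1, which included 4 members. Genotypes were compared with limma 3.58.1 in R 4.3.3 (lmFit and eBayes, Nipbl+/- minus wildtype, no covariates), with Benjamini-Hochberg adjustment over 19937 genes. In the authors' methods the module Comparative Markers Selection is named without its statistic. Pairs of paralogues were compared with 100000 permutations, for 8 of 9 planned pairs, the pair with Cbx6 being left out. The fits were tested on simulated data. The embryos are the replicates, and p-values weigh the difference between genotypes against the spread between embryos. The paper describes the wildtype and mutant embryos as littermates. The labels name no litter, so litters were not modelled and embryos were treated as independent.

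The members, the gene lists and the tests were chosen with earlier results of these data known. All members were named, and of other lists the genes past the threshold and otherwise up to 2 per direction with the smallest p. Cell type markers were given by range, and Lhx9, Erbb3, Tbx4, Pitx1, Uty and Xist were named outside the rule, after their values were seen. Alternatives were the mean of probe sets, leaving out genes with a mean under 6, a t-test on linear values, trended and robust variance, weights for arrays, a block for replicate number, embryo sex (Xist minus the mean of 3 Y-linked genes), array medians, array interquartile range and a threshold of 0.25. Leaving out arrays of low interquartile range, leaving out the lowest array for Pcgf1 fits within Xist levels, and arrays numbered 1 to 6 and 7 to 12 as a covariate and on their own were added after seeing the data. Python 3.11.15 and matplotlib 3.10.9 drew the plots.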

Additional observations from a re-analysis of the deposited data

How the results depend on the processing

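Of 418 values of members under 11 alternatives, 402 kept their direction and their side of the threshold. The other 16 had the other sign, in 10 members, the largest of whose main differences was 0.0853 in size. No member passed an adjusted p under 0.05 under any alternative run. Many directions could not change. The replicate block, the number range covariate, the trended variance and leaving out genes with a mean under 6 leave each log2 difference as it was. The mean of probe sets can alter it only for the 4 members with several. The log2 differences of other sign were 0.0013 and 0.0084 for Ezh1 and 0.00093 and 0.011 for Rnf2 with the t-test on linear values and with array medians set to 0, and 0.013 for Rnf2, 0.012 for Pcgf1 and -0.0074 for Cbx7 with array weights. Without the 3 arrays of low interquartile range they were 0.017 for Rnf2, 0.048 for Pcgf1 and -0.00043 for Cbx7. With embryo sex as a covariate they were -0.0047 for Suz12, -0.0091 for Phf1, -0.0027 for Pcgf2, -0.0022 for Kdm6b, -0.0076 for Kmt2a and -0.022 for Kmt2d. Rbbp4 minus Rbbp7 was 0.0017 with the mean of probe sets. Over all genes, 162 were called, and 281 with array weights (101 higher, 180 lower), 487 with array interquartile range as a covariate (185 higher, 302 lower) and 622 at an adjusted p under 0.25 (242 higher, 380 lower), the last a wider threshold by construction; embryo sex as a covariate left 30 higher. At that threshold 1 member, 2 other genes of the pathway and 5 of the Hox, target and cell cycle genes together were called. The other genes of the pathway called numbered 0 with the mean of probe sets, with the replicate block and with embryo sex, and 2 with array weights. The causes were not tested. Embryos share replicate numbers across genotypes, but in 5 of 12 pairs alone did the deviations of same-numbered arrays correlate above 0.1 (from -0.355 to 0.282), and 3 of 12 wildtype arrays correlated best with their own number, so the numbers were not taken as pairs. With replicate number as a block 0 members and 169 genes were called, and of the paralogue pairs Kdm6a minus Kdm6b differed by -0.27 (adjusted p = 0.363 by permutation).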
